A study of Bos taurus with 10 samples.

Results

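Sperm small RNAs of dairy bulls whose daughters had high fertility were set against those of bulls whose daughters had low fertility. The comparison takes every sample whose title names high or low DFI, the label used for the fertility associated with a bull's daughters, which is 6 of the 10 samples of the series. The high daughter fertility group held 3 sperm samples and the low daughter fertility group held 3. All came from cattle (Bos taurus) sperm with no further treatment, and 1 sample of each group was also labelled as high bull fertility (BFI), so that these 2 samples served in a second comparison of the series as well. The labels give no age, breed or herd, and nothing in them says how daughter fertility was scored or where the groups were divided. Total RNA was made into small RNA libraries, and the deposited tables give 978 miRNAs and 184397 tRNA fragment rows. The labels name separate samples, but not whether each came from its own bull, so p-values here measure the spread between these samples.

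A miRNA is a short RNA that guides an Argonaute protein to messenger RNAs carrying a match to its seed and lowers their output. Mature sperm are nearly silent in transcription, and their small RNAs are what is left from spermatogenesis or was gained in the epididymis, where tRNA fragments become abundant in the mouse. Fragments from the 5′ end of glycine and glutamate tRNAs are the best known of these, and in mice they change with the father's diet.

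The miRNA table gives a mean over 6 libraries for each miRNA and no value per library. A mean of this kind is a sum of whole reads, each library's reads being divided by its size factor, the number that scales its depth. From the digits of the means the reads of every library were recovered for 907 of the 928 miRNAs with a mean under 500. Those 907 miRNAs carried 47.5% of all mean normalized counts. The 49 miRNAs with a mean of at least 500 were not attempted, and 21 with a lower mean were not solved. The 3 libraries on one side of the deposited fold changes had size factors of 0.440, 0.619 and 0.879, and are called H1, H2 and H3. The 3 libraries on the other side had size factors of 0.923, 1.85 and 2.36, and are called L1, L2 and L3. Of the 20 ways to put 6 libraries into 2 groups of 3, this one gave back the deposited fold changes of 98 test miRNAs, and the next best of 0. H2 and L1 held the same counts as 2 libraries of the bull fertility table in 576 of 576 miRNAs solved in both, so they are the 2 samples labelled high bull fertility.

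Which side is high daughter fertility is not written in the miRNA table, and was inferred. In the tsRNA table, whose columns do name the groups, relative depth was 0.618, 0.763 and 0.785 for high and 0.903, 1.39 and 2.21 for low daughter fertility. The shallower side of the miRNA table was therefore taken as high daughter fertility. The shared high library was the shallower of the shared pair in both tables under that reading, although the order of libraries within a group was not the same. Every miRNA direction below rests on it. Reads in the recovered miRNAs came to 27229, 39607 and 56819 in H1, H2 and H3 and to 57670, 175659 and 145756 in L1, L2 and L3, and each library held reads of 863 to 886 of them.

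One low daughter fertility library stood apart. L2 had the highest normalized count of the 6 libraries for 297 of 907 miRNAs, against 85 to 158 in each of the others. In L2 alone lay over 50% of the summed normalized counts of 74 miRNAs, against 4, 11 and 7 in H1, H2 and H3, 9 in L1 and 18 in L3. Where a result rests on L2, a value without it is given, as the log2 ratio of the group means of normalized counts.

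**Figure D1:**
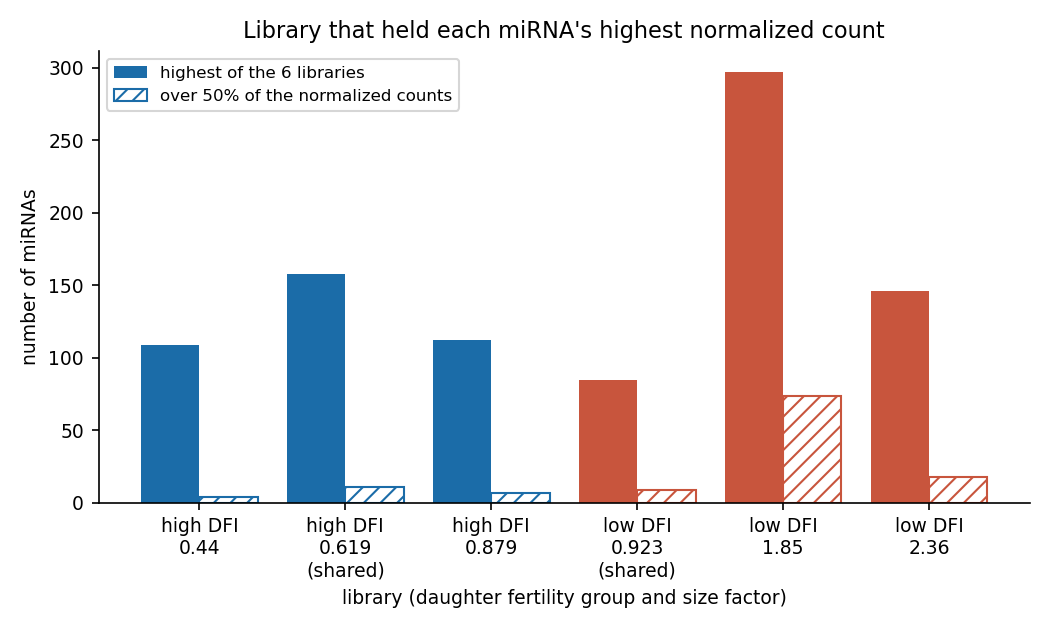
The number of miRNAs, out of 907, whose highest normalized count lay in each library (filled bars) and whose summed normalized counts lay over 50% in that library (hatched bars). Libraries are named by inferred daughter fertility group and size factor, and the library of size factor 1.85 led both counts with 297 and 74 miRNAs.

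2 miRNAs passed an adjusted p under 0.05 (Benjamini-Hochberg) among 951 tested in the authors' deposited table, which is 0.210% of them, and both were lower with high daughter fertility. miR-323b-3p, a miRNA of the imprinted DLK1-DIO3 region in humans, had normalized counts of 61.4, 92.1 and 42.1 in H1, H2 and H3 and of 99.7, 1108 and 1116 in L1, L2 and L3. The groups did not overlap, but L1 lay just above H2, and only L2 and L3 were high. These values came from 27, 57 and 37 reads with high and from 92, 2047 and 2639 reads with low daughter fertility. The mean was 65.2 ± 25.2 with high and 775 ± 585 with low daughter fertility (SD, n = 3 each). Its log2 fold change in the authors' deposited table was -3.57 with a standard error of 0.80, an adjusted p of 0.00724 and a 95% interval of -5.14 to -2.01.

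miR-11999, a miRNA with a late registry number for which no role is given here, had normalized counts of 45.5, 66.2 and 42.1 with high and of 192.9, 262 and 207 with low daughter fertility. All 3 low libraries were well above all 3 high ones, and L2 was not alone. The means were 51.3 ± 13.1 and 221 ± 36.2 (SD, n = 3 each). The authors' deposited table gives a log2 fold change of -2.11, a standard error of 0.52 and an adjusted p of 0.0277.

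Both calls were lost when the recovered reads were tested with limma on log2(normalized count + 1). In that fit miR-323b-3p had a log2 difference of -2.99 and an adjusted p of 0.870, and miR-11999 had -2.10 and an adjusted p of 0.577. limma called 0 of 907 miRNAs past the threshold, which is 0.00%, and 35 at an unadjusted p under 0.05, of which 21 were higher and 14 lower. Without L1, the low library labelled high bull fertility, that count was 72, with 37 higher and 35 lower, and still 0 passed the threshold. The direction of both miRNAs held with each library left out. The log2 ratio of group means of miR-323b-3p ran from -4.09 without L1 to -3.21 without L3, and that of miR-11999 from -2.33 without H2 to -1.96 without L2.

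**Figure D2:**
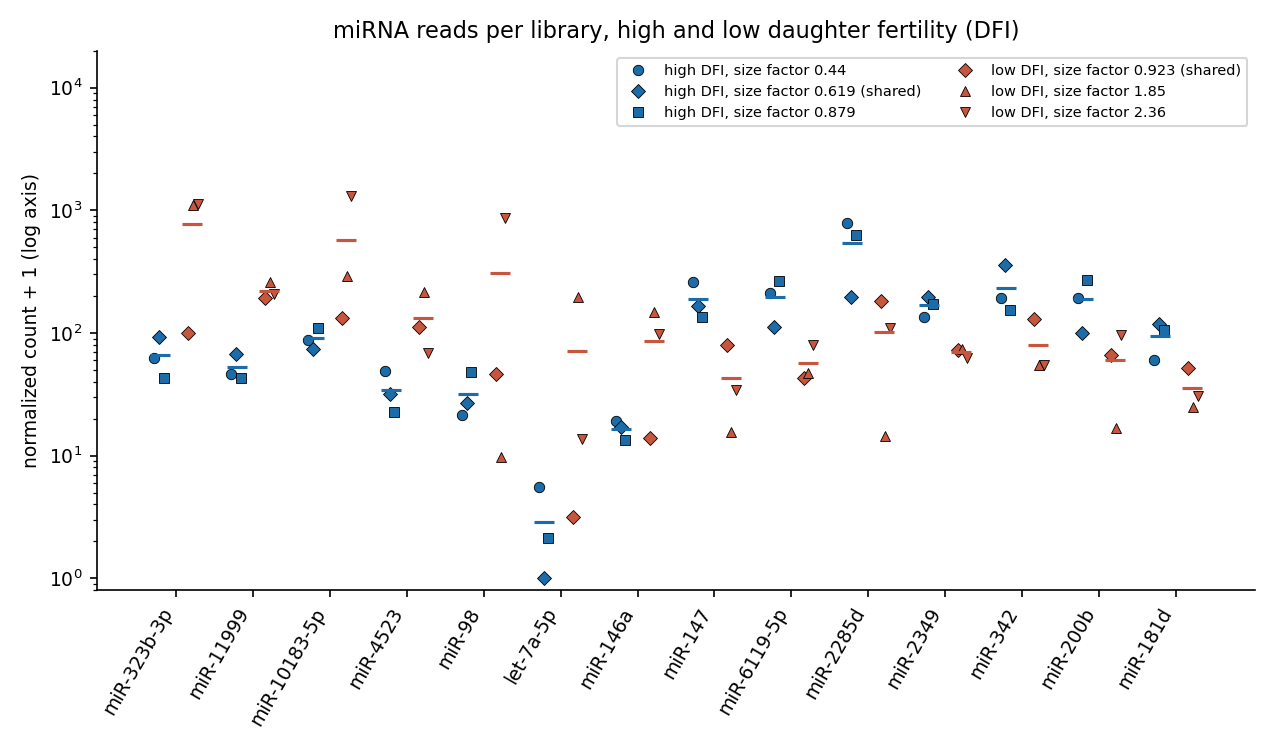
Normalized counts plus 1, on a log axis, of 14 miRNAs in each of the 6 libraries, with high daughter fertility in blue, low in red and group means as bars. Shared marks the libraries that are also in the bull fertility comparison. miR-11999 separated the groups in all 6 libraries, while miR-98 was high in 1 low library at 866 and let-7a-5p in another at 197.

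At an unadjusted p under 0.05 there were 58 miRNAs in the authors' deposited table, which is 6.10% of those tested. Of them, 22 were higher (2.31%) and 36 lower (3.79%) with high daughter fertility. Among the 951 tested, 47.55 would be expected by chance at that level. Of the 34 lower miRNAs whose reads were recovered, 27 had their highest count in L2, and 19 had over 50% of their normalized counts there. Without L2 the median log2 ratio of group means over these 34 was -0.94, against -1.95 with all libraries, and 3 turned positive. limma had 19 higher and 14 lower at an unadjusted p under 0.05 without L2. Of the 21 higher miRNAs with recovered reads, 0 had over 50% in any low library, while 3 had it in H2 and 1 in H3. Among these 55 miRNAs the groups did not overlap for 16 of the lower and 16 of the higher ones, against 42 (4.63%) and 43 (4.74%) of all 907, or 9.37% together. These counts describe miRNAs chosen by the same contrast and are no separate evidence.

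Several lower miRNAs were high in a single library. let-7a-5p, of the let-7 family that restrains growth and developmental timing genes, had normalized counts of 4.55, 0 and 1.14 with high and of 2.17, 197 and 12.7 with low daughter fertility. L2 held 364 of its reads, and L1 lay within the high group. The authors' deposited table gives it a log2 fold change of -5.37 and an adjusted p of 0.0674. Without L2 the log2 ratio of group means was -1.97, against -5.22 with all libraries. miR-98, of the same family, had 20.5, 25.9 and 46.7 with high and 45.5, 8.66 and 866 with low daughter fertility, so that L3 alone was high and L2 was the lowest of all. let-7 members differ by few bases, and how reads that match several of them were counted is not given in the sources used here.

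miR-146a, which dampens innate immune signalling, had normalized counts of 18.2, 16.2 and 12.5 with high and of 13.0, 146 and 97.7 with low daughter fertility. L1 lay within the high group, while L2 and L3 were above it. Without L2 the log2 ratio of group means was -1.82, against -2.45 with all libraries. miR-10183-5p had 86.4, 72.7 and 109 with high and 132, 291 and 1300 with low daughter fertility. Its groups did not overlap, and L3 held 65.3% of its normalized counts. miR-4523 had 47.8, 30.7 and 21.6 with high and 111, 214 and 68.1 with low daughter fertility, with no overlap. The adjusted p of these 3 miRNAs in the authors' deposited table was 0.340, 0.146 and 0.340, so none passed the threshold.

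Smaller but more even differences were seen in miR-30f and miR-12020. miR-30f, of the miR-30 family that is broadly expressed in differentiated tissues, had normalized counts of 9.10, 4.85 and 27.3 with high and of 46.6, 52.5 and 46.5 with low daughter fertility. The 3 low libraries were nearly equal and all above the high ones. miR-12020 had 38.7, 56.5 and 72.8 against 97.5, 155 and 118, again with no overlap. The authors' deposited table gives unadjusted p-values of 0.0192 and 0.0412. Of the 7 miR-30 members there, 4 were positive and 3 negative, with a median log2 fold change of 0.38. miR-30d, the most abundant of them at a mean of 2062, had a log2 fold change of 1.10.

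For 26 miRNAs the authors' deposited table gives a statistic but no p-value, and 24 of them were lower with high daughter fertility. Of the 20 with recovered reads, 17 had their highest count in L2. In each of the 20, from 53.9% to 100% of the normalized counts lay in 1 library. miR-27b, known for roles in lipid metabolism and vessel growth, had 11.4, 9.69 and 5.69 with high and 8.67, 984 and 2.96 with low daughter fertility. L2 alone was high, with 1817 reads against 5 to 8 in every other library, and the log2 ratio of group means turned from -5.22 to 0.62 without it. miR-16a, of the miR-15 and miR-16 family that slows the cell cycle, had 513 in L2 and at most 18.2 in the other 5 libraries, and its log2 ratio went from -4.63 to -0.43 without L2. miR-221, which targets the KIT receptor, had 69.1% of its normalized counts in L2 and at most 53.3 elsewhere, and its log2 ratio turned from -1.93 to 0.45. miR-2284z had 199.8 in L2 and no read in the others. Of the 18 lower miRNAs without a p-value whose reads were recovered, 11 turned positive without L2, 4 stayed negative and 3 gave no ratio.

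2 miRNAs without a p-value were higher with high daughter fertility, and each was high in 1 library. miR-33b, which in humans lies within the SREBF1 gene and represses cholesterol export, had 1082 in H3 and 31.9 to 56.2 in the other 5 libraries. miR-2285cn had 259 in H2 and at most 18.2 in the others. Among the unsolved miRNAs without a p-value, miR-3600 had the most extreme fold change of all with a mean above 1000, at -10.4 on the log2 scale in the authors' deposited table.

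**Figure D3:**
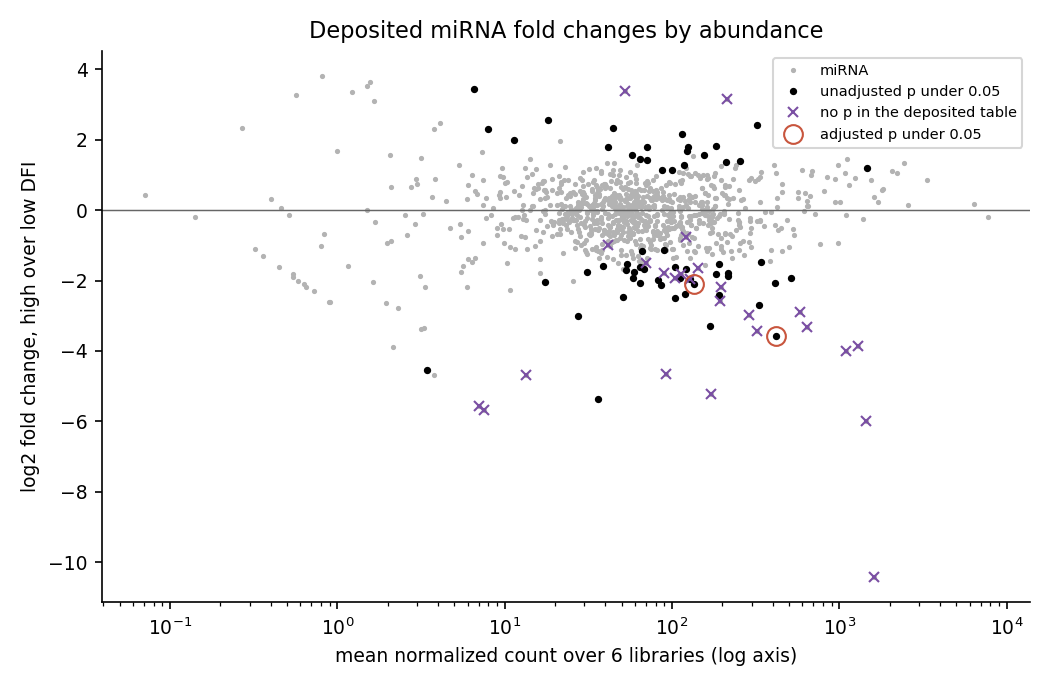
Log2 fold change of high over low daughter fertility in the authors' deposited table against the mean normalized count over 6 libraries, on a log axis, with the inferred direction. miR-2284z, at -19.7, is not drawn. Crosses are miRNAs with no p-value and lie mainly below 0, and circles mark miR-323b-3p and miR-11999.

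No miRNA passed the adjusted threshold in the higher direction, and 22 had an unadjusted p under 0.05. miR-147, which in mouse macrophages is induced by Toll-like receptor signalling, had normalized counts of 259, 166 and 134.3 with high and of 78.0, 14.6 and 33.0 with low daughter fertility. The groups did not overlap, with means of 187 ± 64.9 and 41.9 ± 32.6 (SD, n = 3 each). Its log2 fold change was 2.17 with a standard error of 0.69 and an adjusted p of 0.316 in the authors' deposited table. miR-2349 had 134.2, 197 and 172 with high and 71.5, 73.6 and 61.3 with low daughter fertility. The low libraries lay close together and below all high ones. The means were 168 ± 31.7 and 68.8 ± 6.59 (SD, n = 3 each), a log2 fold change of 1.29 in the authors' deposited table.

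miR-6119-5p had 209, 110 and 264 with high and 42.3, 46.6 and 78.2 with low daughter fertility. miR-342, hosted in an intron of the EVL gene, had 191, 354 and 153 against 129, 53.6 and 53.3. miR-181d, of a family best known in lymphocytes, had 59.1, 116 and 105 against 50.9, 23.8 and 29.6. All 3 separated the groups, with unadjusted p-values from 0.00209 to 0.0164 in the authors' deposited table. miR-2285d, of a large miRNA family described in cattle, had 792, 197 and 629 against 180, 13.5 and 109. It also separated the groups, but H2 at 197 and L1 at 180, the 2 libraries labelled high bull fertility, lay next to each other.

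miR-200b, which holds cells in an epithelial state by repressing ZEB1 and ZEB2, had 191, 98.6 and 271 with high and 65.0, 15.7 and 95.2 with low daughter fertility. L3 lay just below H2. miR-365-3p had 47.8, 229 and 55.8 against 27.1, 37.4 and 30.9, and H2 held 53.6% of its normalized counts. miR-15a, of the miR-15 and miR-16 family, had 114, 54.9 and 143 against 21.7, 29.8 and 63.9, and here L3 lay above H2. miR-182, of the sensory organ cluster with miR-96 and miR-183, had 250, 157 and 505 against 102, 53.6 and 202, also with overlap.

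Values of the most abundant miRNAs per library were not solved, so their fold changes are those of the authors' deposited table. miR-375 had the highest mean normalized count at 7694, with a log2 fold change of -0.21 and a 95% interval of -1.30 to 0.88. miR-100, of a family encoded near the let-7 genes, followed at 6411 with 0.18 and an interval of -1.63 to 1.99. Next came miR-12030 at 3340 and miR-10b, encoded within a HOX cluster, at 2556, with log2 fold changes of 0.84 and 0.16 there. miR-34c, a germ cell miRNA carried by mouse sperm into the egg, had a mean of 2442, a log2 fold change of 1.33 and an unadjusted p of 0.0823 by the authors' deposited table. miR-21-5p, one of the most widely expressed mammalian miRNAs, had a mean of 1469, a log2 fold change of 1.20 and an unadjusted p of 0.0354 there.

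Of the 24 miRNAs with a mean of at least 1000, 17 had a positive fold change and the median was 0.46 on the log2 scale in the authors' deposited table. Over the 882 miRNAs with a mean of at least 10 the median was -0.09, with 402 positive and 480 negative. In the classes from 10 to 30, 30 to 100, 100 to 300 and 300 to 1000 the medians were 0.01, -0.11, -0.17 and -0.01. The median standard error was 0.67 over miRNAs with a mean of at least 10, and 0.66 over those with at least 100. None of the 882 had a 95% interval within -1 to 1, and 522 had one within -2 to 2, so a 2-fold difference could not be bounded for any miRNA at this depth and group size.

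Families were compared by their members' counts and medians, from the authors' deposited table. In the miR-17-92 family and its paralogs, which promote cell growth and are highly expressed in dividing germ cells, 12 of 14 members had a positive fold change and the median was 0.32, against -0.11 over all 977 miRNAs. 1 member, miR-18b, had an unadjusted p under 0.05, with normalized counts of 4.55, 16.2 and 18.2 against 6.50, 1.08 and 1.27. The summed normalized count of the 10 solved members was 441, 420 and 578 with high and 410, 488 and 490 with low daughter fertility. Those sums overlapped. Fold changes in the miR-34 and miR-449 family, which is needed for normal spermatogenesis in mice, were positive in 5 of 6 members, with a median of 0.44 and 0 members under an unadjusted p of 0.05. Its 3 solved members, without miR-34b, miR-34c and miR-449a, summed to 146, 129 and 67.2 with high and 98.6, 303 and 85.8 with low daughter fertility. The log2 ratio of the group means of that sum was -0.51, and turned to 0.31 without L2.

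The let-7 and miR-98 list had 5 positive members of 9 and a median of 0.41 in the authors' deposited table, with 2 members at an unadjusted p under 0.05, both lower and both described above. let-7f had 180, 107 and 288 with high and 33.6, 57.9 and 197 with low daughter fertility, with L3 above H1 and H2. let-7e had 20.5, 128 and 62.6 against 36.8, 36.3 and 36.8, so the low libraries were equal and the high ones spread around them. Members of 1 family therefore had opposite signs.

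Of the miR-29 family, which lowers collagen genes, 3 of 5 members were positive with a median of 0.92 in the authors' deposited table, and the median turned to -0.26 over the 3 members with a mean of at least 10. miR-29a had 166, 246 and 204 against 151.7, 65.5 and 90.1, without overlap, and an unadjusted p of 0.0671. The summed miR-29 count was 246, 281 and 278 with high and 208, 148 and 157 with low daughter fertility. That sum includes miR-29a, the most abundant member. The other members with a mean of at least 10, miR-29d-5p and miR-29d-3p, had negative log2 fold changes of -0.42 and -0.26 in the authors' deposited table. The miR-181 sums, at 491, 690 and 821 against 559, 467 and 454, overlapped through L1 and H1.

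The lists led by L2 showed it in their sums. The miR-221 and miR-222 sum was 61.4, 103 and 84.2 with high and 60.7, 655.7 and 82.9 with low daughter fertility. For miR-23, miR-24 and miR-27 it was 127, 194 and 170 against 151, 1237 and 90.5. For the miR-15 and miR-16 family it was 428, 354 and 528 against 209, 1297 and 344. In each of these 3 lists L1 and L3 lay within or below the high group. Without L2 the log2 ratios of the group means of these sums turned from -1.68 to 0.21, from -1.59 to 0.44 and from -0.50 to 0.66.

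Among the miRNAs numbered 11000 and above, the latest registry numbers in the table, 63 of 96 were lower with high daughter fertility and the median was -0.27 in the authors' deposited table. 1 of them, miR-11999, passed the threshold, and 4 had an unadjusted p under 0.05, all lower, against 3.79% lower of all miRNAs tested. In the 90 solved members the groups did not overlap in 11 lower and 2 higher, against 4.63% lower and 4.74% higher of all solved miRNAs. Their summed normalized count was 8529, 8813 and 8629 with high and 9556, 13607 and 8101 with low daughter fertility, so that L3 was below and L1 and L2 above the high group. Without L2 the log2 ratio of the group means was -0.03, against -0.27 with it. miR-2285 members, at 45 of 102 positive and a median of -0.12, and miR-2284 members, at 13 of 27 and -0.08, were near the figures for all miRNAs.

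The imprinted DLK1-DIO3 list, to which miR-323b-3p belongs, was divided evenly, with 31 of 63 members positive and a median of -0.05 in the authors' deposited table. miR-495, of the same region, had the opposite sign to miR-323b-3p, with 18.2, 42.0 and 163 with high and 15.2, 8.66 and 20.7 with low daughter fertility. H3 held 60.8% of its normalized counts, and H1 lay below L3. By gene neighbourhood in the RefSeq annotation of the ARS-UCD2.0 assembly, used for names alone, miR-323b-3p lay in a run of 50 measured miRNAs with gaps of at most 10 kb, of which 25 were positive and 1 in each direction had an unadjusted p under 0.05. The summed normalized count of 60 solved members of the list was 4902, 4981 and 4389 with high and 4536, 5657 and 4933 with low daughter fertility.

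3 shorter runs had a single sign in the authors' deposited table. The 5 measured names of the miR-17 to miR-20a run were all positive with a median of 0.85, and so were the 4 of the miR-374 and miR-545 run, with a median of 0.40. The 4 of the miR-302 and miR-367 run, which marks embryonic stem cells, were all negative with a median of -0.35. Neighbours can be cut from 1 transcript and are not independent, and none of these miRNAs had an unadjusted p under 0.05.

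Semen also holds leukocytes, epithelial cells and blood. Leukocyte miRNAs, defined by miR-223, miR-142, miR-150, miR-146a and miR-155, had 5 of 6 members lower with high daughter fertility and a median of -0.31 in the authors' deposited table. Their summed normalized count was 482, 504 and 522 with high and 467, 878 and 546 with low daughter fertility, so L2 was high and L1 below all 3 high libraries. Without L2 the log2 ratio of the group means of the sum was -0.01, against -0.33 with it. miR-223, a marker of neutrophils and monocytes, had 86.4, 48.5 and 62.6 against 67.2, 201 and 41.9. Epithelial miRNAs summed to 471, 462 and 506 against 330, 308 and 394, with 4 of 6 members positive and without overlap. Without miR-200b the sums were 280, 364 and 236 against 265, 292 and 298.99, which overlapped. miR-200b was the member with an unadjusted p under 0.05, while miR-200c had 100.1, 191 and 96.7 against 151.7, 87.7 and 87.5.

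Red blood cell miRNAs (miR-451, miR-486 and miR-144) summed to 218, 408.8 and 322 against 327, 234 and 341, and stromal ones to 400.3, 280 and 489 against 397, 440.2 and 430.9. Neither separated the groups. Skeletal muscle miRNAs summed to 237, 247 and 118 against 217, 88.8 and 168, which also overlapped. The most abundant of them, miR-206, had a log2 fold change of 0.62 in the authors' deposited table, while 3 of 4 members were lower. Of the defining markers, none was at 0 in all libraries. miR-133a and miR-133b of skeletal muscle, with means of only 5.47 and 3.30, were at 0 in 2 high daughter fertility libraries each. The germ line list had 7 of 8 members positive and a median of 0.71 in the authors' deposited table, with 0 members at an unadjusted p under 0.05. Whether the makeup of cells in the samples had a part in these differences was not tested, and in bulk samples fewer cells of a type cannot be told apart from less RNA per cell.

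For tRNA fragments the authors' deposited table gives 1 value per group, each equal to a whole number of reads in 1 library of that group, as medians over 3 libraries are. They carry no spread. 5′ fragments of tRNAs made up 58.9% of the summed values with high and 55.7% with low daughter fertility in the authors' deposited table. 3′ fragments made up 2.94% and 3.45%, and fragments of other positions 3.53% and 3.51%. Entries named tRX, tRNA-like genes outside the main tRNA set, gave 29.1% and 32.4% through their 5′ fragments. Many entries of 1 family share reads, so these sums count some reads more than once.

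Glutamate tRNAs gave 26.8% of the summed tRNA 5′ values with high and 15.6% with low daughter fertility in the authors' deposited table. Leucine tRNAs gave 2.56% and 5.41% there, and alanine tRNAs 2.12% and 4.33%. With 1 row per family, glutamate stood at 25.4% and 14.5%, leucine at 2.33% and 5.18%, and alanine at 0.507% and 1.18%, while histidine went from 11.7% and 15.3% to 21.99% and 29.7% and valine from 17.9% and 18.6% to 9.53% and 10.2%. The commonest glutamate row, Glu-CTC-2, stood at 104232 in the high and 65525 in the low daughter fertility column of the authors' deposited table, from 79479 and 90769 reads. Yet its log2 fold change in the authors' deposited table was 0.07 with an unadjusted p of 0.923, so the 2 columns stood well apart while the fitted fold change was near 0. Leu-CAG-1 had 10337 and 29532, a log2 fold change of -1.18 and an unadjusted p of 0.130 by the authors' deposited table. The most abundant row, the 5′ fragment of Gly-GCC-1, had 179868 and 193762, and that of His-GTG-1 had 140259 and 202607, with unadjusted p-values of 0.559 and 0.311 there.

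**Figure D4:**
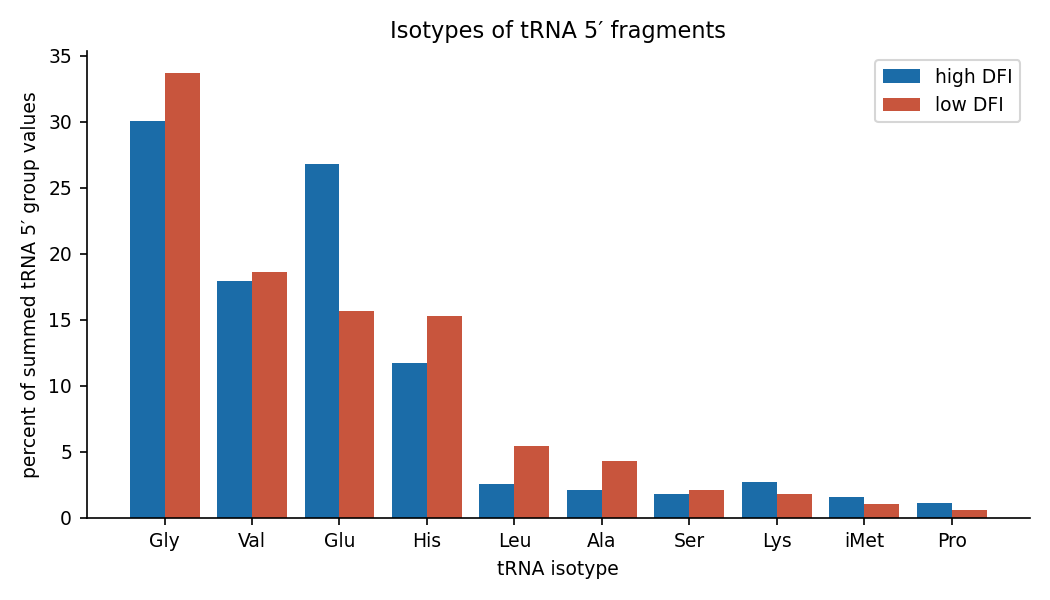
Share of each tRNA isotype in the summed 5′ fragment group values of tRNA entries with high (blue) and low (red) daughter fertility, for isotypes above 1% in either group, from the authors' deposited table with no error. Glutamate stood at 26.8% against 15.6%, and leucine at 2.56% against 5.41%.

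0 of 98760 tRNA fragment rows passed an adjusted p under 0.05 (0.00%) when the unadjusted p-values of the authors' deposited table were adjusted with the Benjamini-Hochberg method. 1311 rows (1.33%) had an unadjusted p under 0.05, 149 higher and 1162 lower with high daughter fertility. Among rows whose group values averaged at least 10 there were 119 of 3654 (3.26%), 33 higher and 86 lower. No second tool could be run on this table, which holds no value per library.

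3′ fragments were lower with high daughter fertility in most tRNA families, where a family is an anticodon and fragment type represented by its most abundant row. Of 47 such 3′ families whose group values averaged at least 10, 44 had a negative fold change, with a median of -1.06 on the log2 scale in the authors' deposited table. Of the 47, 45 had a p-value, while Trp-CCA-2 at -1.98 and Ile-AAT-1 at -3.53 had none. Over all rows of this abundance, tRX included, 58 had a fold change without a p-value, and all 58 were lower. The 44 families of 5′ fragments had 34 negative and a median of -0.31, and the 51 of other fragments 42 negative and -0.39. Over all rows of this abundance from tRNA entries the median was -0.52, with 535 of 670 tested rows negative. With the tRX entries, whose median was 0.12, it was 0.00 over 3712 rows. By the group values themselves, 40 of the 47 3′ families, 29 of the 5′ and 27 of the other families were lower with high daughter fertility. The median log2 ratios of those values were smaller than the fold changes, at -0.53, -0.19 and -0.05. Group values and fold change differed in sign in 4, 9 and 19 of these families. None of these families passed the adjusted threshold, and 3 of 150 had an unadjusted p under 0.05, all lower. Families share libraries and scaling, so they are not independent of each other.

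**Figure D5:**
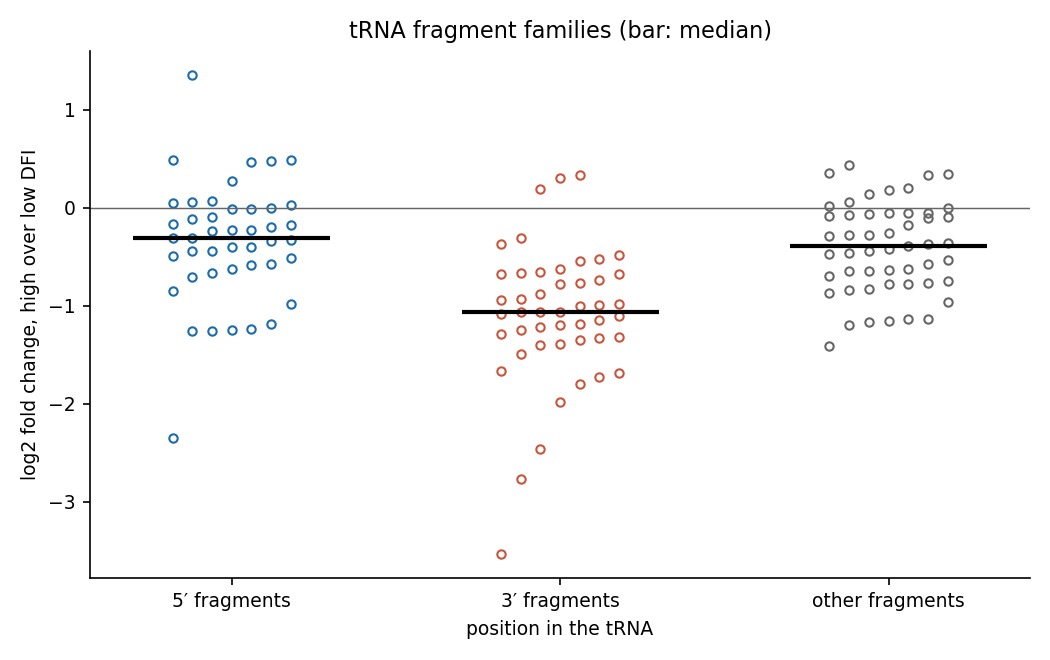
Log2 fold change of high over low daughter fertility in the authors' deposited table for tRNA fragment families whose group values averaged at least 10, by position in the tRNA, 1 point per family and the median as a bar. The medians were -0.31 for 5′, -1.06 for 3′ and -0.39 for other fragments, and 3′ families lay lowest.

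The 2 ends of the same tRNA were then set side by side. In 35 of 42 families with both ends measured, the 3′ fold change was below the 5′ one in the authors' deposited table, by a median of 0.72 on the log2 scale. In the group values the ratio of 5′ to 3′ was higher with high daughter fertility in 28 of 42. For Glu-CTC it was 45.8 with high and 21.6 with low daughter fertility, for Pro-AGG 10.7 and 3.01, and for Lys-CTT 11.6 and 4.82. Ser-GCT went the other way, with 0.0572 and 0.0827, and Leu-CAG with 156 and 386. These ratios have no error, as each value is a single library's, and the 2 ends can come from different libraries. For Pro-AGG with low daughter fertility, the 5′ value came from the library of relative depth 2.21 and the 3′ value from that of 1.39. They are therefore not ratios within a sample.

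Individual 3′ rows with the smallest p-values were low in reads. Trp-CCA-1 stood at 12.7 from 10 reads with high and at 42.6 from 94 reads with low daughter fertility, and had a log2 fold change of -3.74 with an unadjusted p of 0.000941 by the authors' deposited table. Trp-CCA-4 had the same group values. The bull fertility column of the same table shows the low daughter fertility library shared with it at 17.3, so the third low library was at or above 42.6. The 3′ fragment of Gly-GCC-4 had 8.09 from 5 reads and 80.6 from 178, and that of Gly-CCC-5 had 1.31 from 1 read and 20.8 from 46 in the authors' deposited table. Thr-TGT-5 had 41.97 and 57.03, close to each other, although its log2 fold change there was -2.77 with an unadjusted p of 0.00457.

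In a few rows the columns settled which low library was highest. Among 3′ rows averaging at least 10, the low library of relative depth 0.903 was the highest in 18 of the 25 settled rows, and among 209 such 5′ rows in 19 of the 26 settled ones. The other 3′ and 5′ rows were not settled. Rows of a family share reads, and by family it was the highest in 4 of 7 settled 3′ families and in 2 of 4 settled 5′ families. The table shows that library's value only in rows where it is the median, and its part in the negative fold changes was not tested.

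Some larger 3′ rows went the same way with more reads. Met-CAT-2 had 1012 with high and 3708 with low daughter fertility, a log2 fold change of -1.10 and an unadjusted p of 0.147 by the authors' deposited table. Lys-CTT-1 had 1633 and 2649 and Phe-GAA-1 had 246 and 525 there, and these rows did not reach an unadjusted p of 0.05. Gln-TTG-2, a smaller row, had 97.0 from 74 reads and 115 from 159 reads. Its log2 fold change was -2.46 with an unadjusted p of 0.0167 by the authors' deposited table. The bull fertility column shows the high daughter fertility library shared with it at 123 in that row, above the low value. The largest 3′ row, Gly-CCC-7, had 9015 and 8635 with a log2 fold change of -0.68 in the authors' deposited table, so its values and its fold change differ in direction.

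Among 5′ rows, some of lysine TTT tRNAs had higher values with high daughter fertility. Lys-TTT-2 had 2331 from 1440 reads with high and 449 from 622 reads with low daughter fertility, a log2 fold change of 1.77 and an unadjusted p of 0.0587 by the authors' deposited table. Lys-TTT-1 had 2517 and 827 there. In both rows the 2 values are those of the libraries labelled high bull fertility as well. The most abundant 5′ row of this anticodon, Lys-TTT-24, had 1704 and 1945 and a log2 fold change of 0.03 in the authors' deposited table. The 5′ rows of proline tRNAs had about the same values for 3 anticodons, with Pro-CGG-1 at 3432 and 1995. A fragment of the Gly-GCC-1-6 precursor had 315 and 160, a log2 fold change of 1.62 and an unadjusted p of 0.0507 by the authors' deposited table.

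The 5′ fragments of Ser-GCT-7 and Ser-GCT-2 were lower, with 30.6 and 33.1 with high against 47.6 with low daughter fertility and unadjusted p-values of 0.0113 and 0.0115 by the authors' deposited table. Ala-TGC-9 had 1091 and 2680 there, with an unadjusted p of 0.0701. Of 670 tested tRNA rows of a mean of at least 10, 38 (5.67%) had an unadjusted p under 0.05, and 0 of them were higher. Fold changes were negative in 535 of these 670 rows. Among tRX rows it was 81 of 2984 (2.71%), 33 of them higher, against 3.26% of all rows of this abundance. Rows of a family share reads. Among the tRX rows, a 3′ fragment of tRX-Trp-NNN-1 had 7.64 and 42.6, and antisense reads of tRX-Cys-NNN-102913 had 103 and 12.7, with unadjusted p-values of 0.000646 and 0.00718 by the authors' deposited table. In the tRX-Cys-NNN-102913 row the low library shared with the bull fertility comparison stood at 44.0, above the low group value.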

How the data were processed

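Small RNA libraries of bull sperm were compared between 3 high and 3 low daughter fertility samples. Per the submitters' processing notes, Trimmomatic 0.39 and DESeq2 1.34.0 were used. The sources used here give no aligner, genome build, annotation or handling of reads with several matches. Per the file headers, the authors deposited for each miRNA a mean of normalized counts (a signal), a Wald statistic (a score), p-values and a log2 fold change with a standard error, and for each tRNA fragment row a log2 fold change, a p-value and 1 normalized signal per group. From other groups, the high bull fertility column of the tRNA fragments and the bull fertility miRNA values were used, to find the shared libraries. The signs of the miRNA table were turned to high over low by the inference from depth given in the report.

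Reads per library were recovered as follows. Whole-number relations among 38 low means (lattice reduction, sympy 1.14.0) gave 6 libraries and their size factors, with a largest residual of 5.77e-15. For each other miRNA with a mean under 500 all whole-number solutions of its mean were listed; 601 had a single one, and 268 had 1 that gave the deposited fold change within 1e-05. In simulated data for this comparison 148 of 150 miRNAs were solved, all 148 with every count right. The simulated means were taken from recovered miRNAs, and the fold changes were made with the fit used in solving. The simulation therefore cannot show whether the deposited fold changes follow that fit, or how miRNAs that were not recovered would fare. Total reads per library are unknown. Recovered normalized counts are reads divided by size factor.

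The authors' p-values are the main test, with an adjusted p under 0.05, and limma 3.58.1 (R 4.3.3) with a mean-variance trend on log2(normalized count + 1) was added after seeing the data. Routines ran in Python 3.11.15 with scipy 1.17.1. tRNA fragment p-values were adjusted over all rows. Members, gene lists and the naming rule (miRNAs past the threshold, the 10 smallest p-values per direction with a mean of at least 10, the 15 most abundant, and up to 4 members per list plus those with an unadjusted p under 0.05; for fragments likewise, by smallest p, isotype and abundance) were chosen with earlier results of these data known. The miRNAs without a p-value, the members of gene runs and values by L2 were chosen after their values were seen. No sequences are shown, as none was in the sources used here.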

Additional observations from a re-analysis of the deposited data

How the results depend on the processing

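No paired analysis was run, as the labels used here name no pairs of high and low samples. Recovered libraries other than H2 and L1 also cannot be matched to samples, and the tRNA fragment table holds 1 value per group. With the inferred direction turned round, miR-323b-3p would stand at 3.57 and miR-11999 at 2.11. The 2 miRNAs past the threshold became 0 when the Wald statistic was read against a t distribution with 4 degrees of freedom, and 0 with limma on the recovered reads, where leaving out each library gave 0 to 0, and 25 to 72 at an unadjusted p under 0.05 (72 without L1). The 22 higher and 36 lower miRNAs at an unadjusted p under 0.05 became 4 and 9 with that t distribution, and limma had 21 and 14. The miR-29 median became -0.26 over members with a mean of at least 10. The 28 tRNA fragment families with a positive fold change became 15 at a mean of at least 100, and 53 by the ratio of group values at each pseudocount of 0.5, 1 and 10. Unadjusted tRNA fragment rows, 149 higher and 1162 lower, became 33 and 86 at a mean of at least 10, 1 and 15 at a mean of at least 100, and 4 and 46 in tRNA entries alone. Lower rows outnumbered higher ones in each of these settings. A higher mean minimum, or tRNA entries alone, also leaves fewer families or rows to count. The falls in count under these settings therefore do not by themselves show a change in share. The tRNA 5′ share became 90.0% and 88.7% in tRNA entries alone and 75.4% and 72.6% with the most abundant row of each family, for high and low daughter fertility. Apart from those falls in count, the cause of these shifts was not tested. The other 82 alternatives for the compared counts and medians stayed within 1.5 times or within the error. limma and its variants were chosen after seeing the data.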
